A study of Drosophila melanogaster with 6 samples.

Results

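The odorant-binding protein (Obp) genes of Drosophila melanogaster were followed in RNA from whole larvae. The members were the genes whose symbol in the deposited tables begins with Obp and a digit, which gave 51 genes of 16508 in the tables. Polyadenylated RNA was sequenced from larvae of instar 3 in 6 libraries of 40 larvae each, of which 3 are labelled CrolKO and 3 wild-type. The study used them to ask how loss of crol (crooked legs), which encodes a zinc-finger protein that binds Polycomb response elements, alters transcription.

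The CrolKO allele was made by homologous recombination after CRISPR/Cas9 cutting, with a DsRed marker in place of the coding part of crol. The injected stock carried y, w1118, a DNAlig4 mutation and a Cas9 transgene driven by the Act5C promoter, and its flies were crossed to y- w1118 flies. The wild-type larvae were of the Oregon strain. The deleted gene and the strain therefore cannot be told apart in any difference given here.

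The Obp family encodes small secreted proteins whose conserved cysteines form disulfide bridges around a pocket that binds hydrophobic molecules. Support cells of olfactory and taste sensilla secrete many of them into the fluid that bathes the sensory neurons. Others are made in tissues with no known part in smell or taste, such as fat body, glia and the male reproductive tract. Plus-C members carry additional conserved cysteines, minus-C members have lost a conserved pair, and double-domain members hold a repeated Obp domain.

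The libraries labelled CrolKO held 42933698, 49236787 and 23637969 expected counts (replicates 1, 2 and 3), and those labelled wild-type held 28697638, 37900887 and 33670385. An expected count is RSEM's estimate of the reads or read pairs that came from a gene. Which of these was counted is unclear, since most totals exceed the paired-end reads per library that the study reports. Levels between groups are given as normalised CPM (counts scaled to library size), with TMM factors, and levels between genes as TPM (transcript abundances), which also account for length. crol itself was at 42.8, 39.1 and 37 CPM in the libraries labelled CrolKO, against 63.3, 60.6 and 73.2 CPM in those labelled wild-type, a log2 fold change of -0.73 (adjusted p = 0.0043, edgeR). The file names give each library the opposite genotype to its label. The eye colour gene w, mutant in the stocks used to make the knockout, was at 15.2, 16.6 and 17.9 CPM in the libraries labelled CrolKO, against 0.817, 0.623 and 0.561 CPM in those labelled wild-type. The level of w goes against the labels, while the lower crol in the libraries labelled CrolKO goes with them. That crol difference was only -0.14 (adjusted p = 0.63, edgeR) once each library's trend of counts over transcript length was removed. crol RNA also still averaged 39.6 CPM in CrolKO, against 65.7 CPM in wild-type, although the allele replaces the coding part. The knockout was balanced over a CyO chromosome with a w[+mC] transgene, and whether that chromosome was present in these larvae is not given. The question of the labels was not settled, so every direction below refers to the libraries as labelled.

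In whole-larva RNA, fewer cells of a type and less RNA per cell cannot be told apart. Midgut digestive enzyme genes, taken as markers of gut tissue, were called higher in the libraries labelled CrolKO in 8 of 8 cases and summed to 67456 to 82438 TPM there, against 31904 to 35091 TPM in wild-type. Fat body markers were called lower in 3 of 6 cases, while 1 of the 6 was higher at an unadjusted p under 0.05 (edgeR). The 6 together summed to 23387 to 26116 TPM in CrolKO, against 38123 to 42528 TPM in wild-type. None of 7 glial markers was called (an unadjusted p under 0.05 in 2, both lower, and 0 by DESeq2), and they summed to 123 to 196 TPM in CrolKO, against 250 to 347 TPM in wild-type. All 8 markers of the adult male accessory gland were too low to test, at 0.02 to 0.56 TPM in CrolKO and 0.41 to 2.19 TPM in wild-type in sum, and 3 of them (Acp62F, SP and Acp98AB) were at 0 in all libraries. Of the neuronal markers 1 of 5 was called lower (5 lower at an unadjusted p under 0.05, 2 called by DESeq2), and they summed to 9.69 to 14.3 TPM in CrolKO, against 22.5 to 38.6 TPM in wild-type. Of the salivary gland markers 1 of 6 was called lower (3 at an unadjusted p under 0.05), with 15192 to 33584 TPM in CrolKO, against 33616 to 39585 TPM in wild-type. Of the hemocyte markers 0 of 5 were called (3 lower at an unadjusted p under 0.05, 0 by DESeq2), with 37.2 to 54.3 TPM in CrolKO, against 85.5 to 114 TPM in wild-type. Of the testis markers 3 of 7 were called higher, while their summed level was 32.8 to 52.5 TPM in CrolKO, against 44 to 134 TPM in wild-type. No marker outside the accessory gland list was at 0 in every library. These sums are in TPM, which was lower in CrolKO for the median tested gene as well. In normalised counts the median log2 fold change was 1.95 for midgut, -0.52 for fat body, -0.21 for glia and -0.98 for neurons. It was -0.42 for salivary gland, -0.49 for hemocytes and 0.77 for testis, against -0.052 over all tested genes. The part of these shifts in the results below was not tested.

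Of the 51 Obp genes, 23 reached 10 counts in at least 3 libraries and were tested, and 28 did not. A mean of at least 1 TPM in either group was reached by 22 genes (21 in CrolKO and 20 in wild-type). Over the 6 libraries 6 genes averaged at least 100 TPM, 5 lay between 10 and 100 TPM, and 8 between 1 and 10 TPM. The 51 genes together summed to 6172, 10963 and 10573 TPM in the libraries labelled CrolKO, against 14151, 13690 and 13796 TPM in those labelled wild-type. These sums were 0.617 to 1.1% of all TPM in CrolKO and 1.37 to 1.42% in wild-type. The groups did not overlap on this scale, for which the smallest two-sided exact permutation p of 3 libraries against 3 is 0.1. As a share of all counts the family made up 0.359, 0.709 and 0.657% in CrolKO, against 0.782, 0.684 and 0.786% in wild-type, and here the groups overlapped. The difference between the scales matters throughout, because the TPM of the median tested gene was lower in CrolKO by 0.48 on the scale of log2(TPM + 1), while its normalised CPM differed by a log2 fold change of -0.052.

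Obp99b stood far above every other member. Its product is also known as Turn on sex-specificity (Tsx) and is made by the fat body of the adult male head. It was at 4088, 8594 and 7962 TPM in the libraries labelled CrolKO, against 10623, 10234 and 10341 TPM in those labelled wild-type. This was 66.2, 78.4 and 75.3% of the family's TPM in CrolKO, against 75.1, 74.8 and 75% in wild-type. Among all genes it ranked 44th, 15th and 16th by TPM in the CrolKO libraries, against 9th, 11th and 13th in wild-type. The spread in CrolKO came from replicate 1, the lowest of the 6 libraries. On the normalised scale the values were 2575, 7058 and 5710 CPM in CrolKO, against 4858, 3843 and 5499 CPM in wild-type. The groups then overlapped, with a log2 fold change of 0.11 (SE 0.359, adjusted p = 0.831, edgeR).

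**Figure D1:**
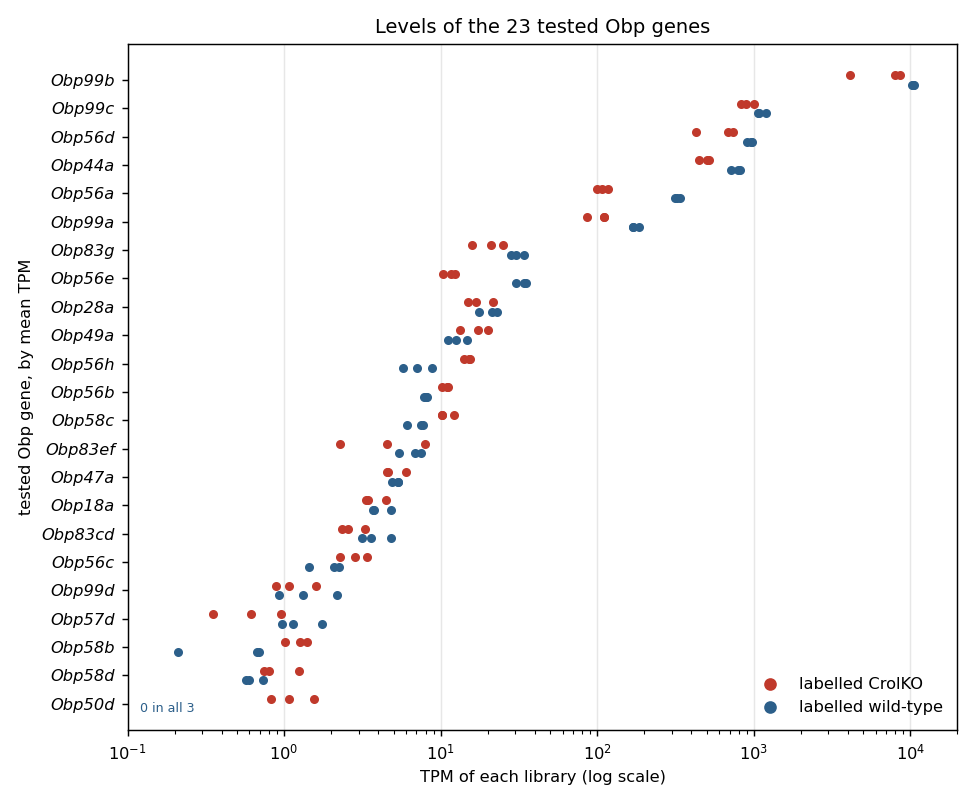
TPM of the 23 tested Obp genes (rows, ordered by mean TPM) in each library on a log axis, with libraries labelled CrolKO in red above those labelled wild-type in blue. Obp99b lies between 4088 and 10623 TPM, and Obp50d at the bottom has 0 counts in all 3 wild-type libraries.

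The next genes by mean TPM over the 6 libraries were Obp99c at 1012, Obp56d at 780, Obp44a at 632, Obp56a at 216 and Obp99a at 138 TPM. Obp83g followed at 25.7 TPM and Obp56e at 22.3 TPM. Obp99c measured 889, 827 and 1007 TPM in CrolKO, against 1067, 1076 and 1204 TPM in wild-type. Obp56d measured 428, 683 and 740 TPM in CrolKO, against 960, 968 and 904 TPM in wild-type. Both groups were thus separate on the TPM scale for these genes, with CrolKO lower. Obp44a, which in the nervous system is made by glia, measured 448, 504 and 516 TPM in CrolKO, against 820, 788 and 714 TPM in wild-type. Obp99a measured 86.3, 110 and 110 TPM in CrolKO, against 184, 170 and 168 TPM in wild-type. In both genes the groups were separate, again with CrolKO lower. For Obp83g the values were 20.9, 25.1 and 15.9 TPM in CrolKO, against 30.3, 28 and 34.1 TPM in wild-type.

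None of these 8 most abundant members was called in either direction by the main test. In normalised counts Obp99c had 567, 687 and 731 CPM in CrolKO, against 494, 409 and 648 CPM in wild-type (log2 fold change 0.36, SE 0.201, adjusted p = 0.203). Obp56d had 282, 586 and 555 CPM in CrolKO, against 458, 380 and 501 CPM in wild-type (0.088, SE 0.273, adjusted p = 0.824). Obp44a had 333, 490 and 435 CPM in CrolKO, against 436, 344 and 442 CPM in wild-type (0.043, SE 0.185, adjusted p = 0.874). In each of these genes the groups overlapped. On the opposite strand Obp44a overlaps Pabp2 and Obp99c overlaps Gycalpha99B, so that their counts are exact only if strand was used. Obp99a had 53.2, 88.7 and 76.8 CPM in CrolKO, against 82.4, 62.6 and 87.3 CPM in wild-type (-0.087, SE 0.21, adjusted p = 0.774). Obp83g had 13, 20.4 and 11.3 CPM in CrolKO, against 13.7, 10.4 and 18 CPM in wild-type (0.10, SE 0.266, adjusted p = 0.8). Replicate 1 was the lowest CrolKO library for Obp99b, Obp99c, Obp56d, Obp44a and Obp99a in CPM, but not for Obp83g, where it was replicate 3.

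Of the 23 tested members, 8 (34.8%) passed as higher in CrolKO and 0 as lower, where a call needs an adjusted p under 0.05 and a log2 fold change beyond 1 in either direction. Of all 12434 tested genes, 6.0% were called higher, 7.55% lower and 13.6% in either direction. One of the 8, Obp50d, had 0 counts in every wild-type library and entered the test only through its CrolKO counts, and without it 7 of 22 (31.8%) were called higher. Where only genes with at least 10 counts in every library were tested, 6 of 21 members (28.6%) were called higher and 0 lower, against 5.56% and 6.90% of all genes. The 8 genes were Obp49a, Obp50d, Obp56b, Obp56c, Obp56h, Obp58b, Obp58c and Obp58d. They moved in the same direction as the midgut markers, 8 of 8 of which were called higher. Of the testis markers 3 of 7 were also called higher and 0 lower. Whether gut or testis tissue bears on the called members was not tested. Below the fold threshold, Obp56a and Obp56e passed the adjusted p in the negative direction, so that 8 members passed it upwards and 2 downwards (15.3 and 17.8% of all tested genes). At an unadjusted p under 0.05 the counts were 10 and 2 (21.1 and 24.5% of all tested genes). DESeq2 also called 8 higher and 0 lower, against 786 and 915 of all 12434 tested genes. The median log2 fold change of the tested members was 0.38, and 0.37 without Obp50d, against -0.052 over all tested genes.

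The 2 groups of libraries did not overlap in normalised CPM for 10 members that were higher in CrolKO and 2 that were lower, and they overlapped for the other 11. Over all tested genes the groups did not overlap in 50.2%, with 23.7% higher and 26.5% lower. The 10 genes were those called higher together with Obp28a and Obp47a. All 8 called genes were of low to moderate level, with means over the 6 libraries from 0.577 to 14.9 TPM.

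Tested Obp genes are short, with a median transcript length of 587 bases (498 to 1488) against 1677 bases for all tested genes. When each library's trend of counts over transcript length was removed, 5 members (21.7%) were called higher and 2 lower. Of all tested genes 5.06% were then called higher and 5.66% lower. Obp50d, Obp56c, Obp56h, Obp58b and Obp58c were the 5 genes higher, and Obp56a and Obp56e the 2 lower. The median log2 fold change of the members was then 0.13, against -0.0075 over all tested genes. The same correction moved crol to -0.14 (adjusted p = 0.63).

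**Figure D2:**
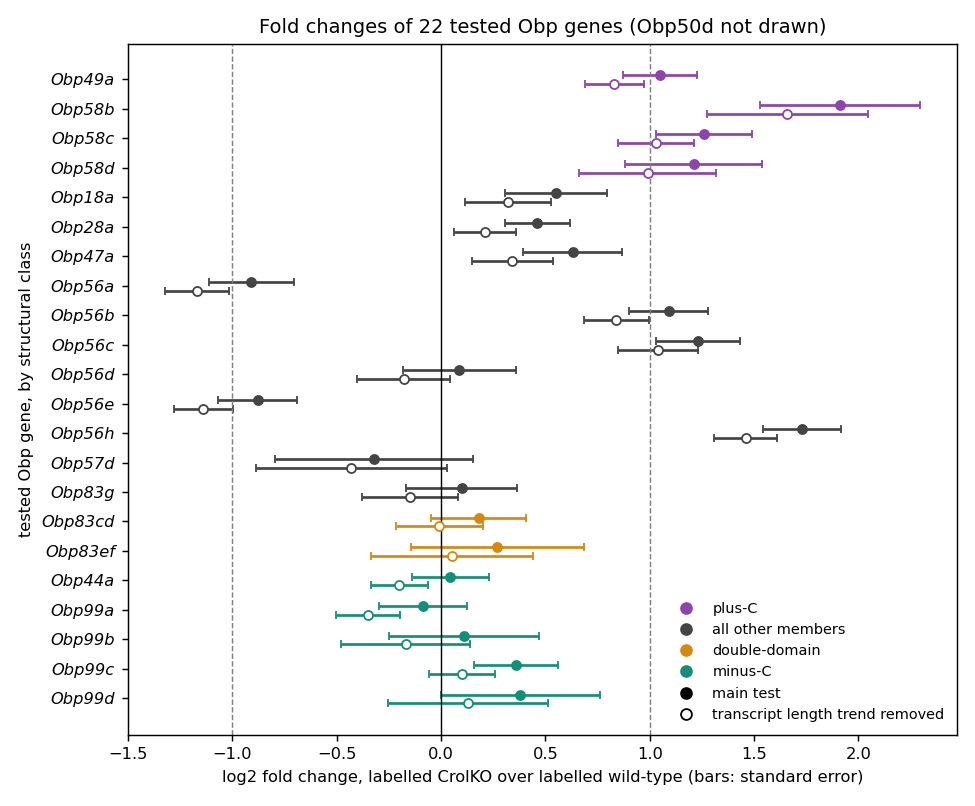
Log2 fold change (labelled CrolKO over labelled wild-type, bars are standard errors) of 22 tested Obp genes, coloured by structural class; Obp50d, a plus-C gene with 0 counts in wild-type, is not drawn. Filled points are the main test and open points the fit with the transcript length trend removed. Dashed lines mark the fold threshold. The 4 plus-C genes drawn lie at 1.05 to 1.91 in the main test and the minus-C genes at -0.087 to 0.38.

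The plus-C class held 13 members, of which 5 were tested. Obp50d passed the count minimum only through the libraries labelled CrolKO and is described apart. The other 4, Obp49a, Obp58b, Obp58c and Obp58d, were called higher in CrolKO, with log2 fold changes from 1.05 to 1.91 (0.83 to 1.66 with the length trend removed), where 6.0% of all tested genes were called higher. The class assignments come from general knowledge of the family not from the sequences, and were written after these values had been seen, so they carry no test. A gene of uncertain class was left with the other members. The other 8 plus-C members (Obp46a, Obp47b, Obp50a, Obp50b, Obp50c, Obp50e, Obp85a and Obp93a) reached at most 15 counts in a library. Together the class summed to 27.9 to 36.1 TPM in CrolKO, against 20.3 to 25.1 TPM in wild-type. The groups did not overlap, and CrolKO was higher on the TPM scale too.

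Obp49a, which in adult taste sensilla takes part in the suppression of sweet taste by bitter compounds, was the most abundant plus-C member. It had 15.4, 15.5 and 20.4 CPM in the libraries labelled CrolKO, against 9.58, 6.71 and 8.39 CPM in those labelled wild-type. Every CrolKO library was above every wild-type library, with means of 17.1 ± 2.83 CPM in CrolKO and 8.23 ± 1.44 CPM in wild-type (SD, n = 3 libraries each). The log2 fold change was 1.05 (SE 0.176, adjusted p = 0.0042, edgeR). With the length trend removed it was 0.83, below the fold threshold, with an adjusted p of 0.0034. On the TPM scale the groups overlapped, at 17.3, 13.3 and 20.1 TPM in CrolKO against 14.8, 12.6 and 11.1 TPM in wild-type.

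Obp58b, Obp58c and Obp58d are plus-C genes that lie next to each other on arm 2R, and all 3 were called higher. Obp58c, the most abundant of them, had 7.97, 10.4 and 10.7 CPM in CrolKO, against 4.38, 2.83 and 4.91 CPM in wild-type. This was a log2 fold change of 1.26 (SE 0.229, adjusted p = 0.0059), and it stayed called at 1.03 with the length trend removed (adjusted p = 0.0043). Its TPM values also did not overlap, at 10.2, 10.2 and 12.1 in CrolKO against 7.75, 6.1 and 7.47 in wild-type. Obp58b was close to the count minimum, with 38, 39 and 25 counts in CrolKO, against 13, 16 and 5 in wild-type. These are 0.977, 1.02 and 1.24 CPM in CrolKO, against 0.38, 0.322 and 0.14 CPM in wild-type, a log2 fold change of 1.91 (SE 0.384, adjusted p = 0.0088) and of 1.66 with the length trend removed (adjusted p = 0.0132). Obp58d was also low, with 40, 33 and 14 counts in CrolKO, against 15, 14 and 15 in wild-type. In CPM this gave 1.03, 0.861 and 0.694 in CrolKO, against 0.438, 0.281 and 0.421 in wild-type. Its log2 fold change of 1.21 (SE 0.327, adjusted p = 0.0265) had the highest adjusted p of the called members. With the length trend removed it was 0.99 and no longer called (adjusted p = 0.0491). The fourth gene of this run, Obp59a, which is needed for humidity sensing in the adult antenna, was too low to test, at 0 TPM in all CrolKO libraries and 0.14, 0.09 and 0 TPM in wild-type.

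Obp50d was detected in one group of libraries and not in the other. It had 21, 50 and 16 counts in the libraries labelled CrolKO, against 0 counts in each library labelled wild-type. These counts correspond to 0.54, 1.31 and 0.793 CPM in CrolKO. Measured against a floor of 3 counts in each wild-type library, a mean of 0.0774 CPM, Obp50d was at least 11.4-fold higher in CrolKO. Its fitted log2 fold change of 8.0 (adjusted p = 0.0027) depends on the prior count of the fit and is no bound. It passed the count minimum only through the libraries labelled CrolKO. Its neighbours in the same run on arm 2R were low in both groups. Obp50a was at 0.1, 0.05 and 0.06 TPM in CrolKO, against 0.21, 0.18 and 0 TPM in wild-type. Obp50b and Obp50c have the same transcript extent and equal counts in each library, with 8, 7 and 6 counts in CrolKO against 6, 15 and 2 in wild-type, so the 2 genes cannot be separated here.

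**Figure D3:**
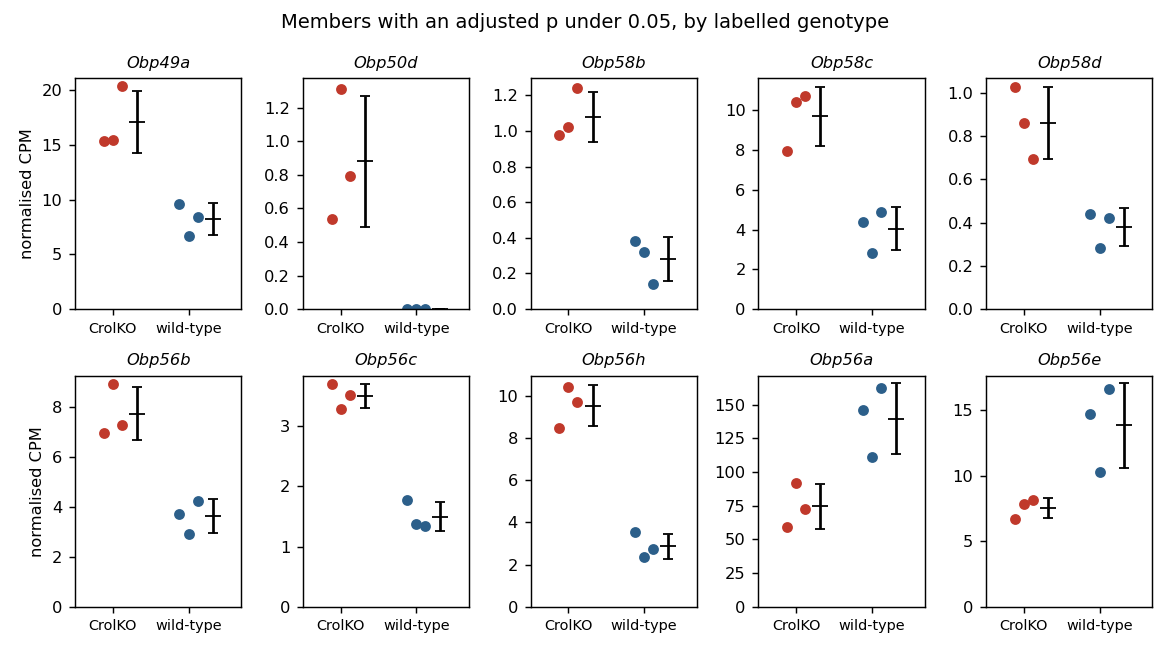
Normalised CPM of the 10 Obp genes with an adjusted p under 0.05, each library a point, CrolKO (red) left of wild-type (blue), with the mean and SD of 3 libraries as bars. In every panel the groups are separate, and Obp56a and Obp56e are the 2 genes with CrolKO below wild-type.

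The Obp56 genes showed changes in both directions among neighbours. Obp56a, Obp56b, Obp56c, Obp56d, Obp56e and Obp56f follow each other on arm 2R with no other coding gene between them. Of the 5 that were tested, Obp56b and Obp56c were called higher, Obp56a and Obp56e had negative log2 fold changes that passed the adjusted p alone, and Obp56d overlapped between the groups. Obp56f was nearly absent, at 0 TPM in every CrolKO library and 0.07, 0.06 and 0.12 TPM in wild-type.

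Obp56b had 6.99, 8.95 and 7.28 CPM in CrolKO, against 3.74, 2.91 and 4.26 CPM in wild-type (means of 7.74 ± 1.06 in CrolKO and 3.64 ± 0.68 in wild-type, SD, n = 3 each). Its log2 fold change was 1.09 (SE 0.191, adjusted p = 0.005), and 0.84 with the length trend removed (adjusted p = 0.0049), which is below the fold threshold. Obp56c had 3.7, 3.29 and 3.52 CPM in CrolKO, against 1.78, 1.37 and 1.35 CPM in wild-type, a log2 fold change of 1.23 (SE 0.202, adjusted p = 0.004) that stayed called at 1.04 with the length trend removed (adjusted p = 0.005). Both genes were separate between the groups on the TPM scale as well, Obp56c only narrowly. A limma test on log2(TPM + 1) gave an adjusted p of 0.0376 for Obp56b and of 0.118 for Obp56c. Obp56b was at 11.2, 11 and 10.2 TPM in CrolKO, against 8.23, 7.81 and 8.07 TPM in wild-type. Obp56c was at 3.37, 2.29 and 2.82 TPM in CrolKO, against 2.23, 2.09 and 1.45 TPM in wild-type.

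Obp56a, one of the 8 most abundant members, moved the other way. It had 59, 91.9 and 72.6 CPM in the libraries labelled CrolKO, against 146, 111 and 162 CPM in those labelled wild-type. The groups did not overlap, with means of 74.5 ± 16.5 CPM in CrolKO and 140 ± 26.3 CPM in wild-type (SD, n = 3 each). This gave a log2 fold change of -0.91 (SE 0.204, adjusted p = 0.0134), which misses the fold threshold. With the length trend removed it was -1.17 (adjusted p = 0.001) and called lower. Obp56e had 6.71, 7.83 and 8.12 CPM in CrolKO, against 14.7, 10.3 and 16.6 CPM in wild-type, a log2 fold change of -0.88 (SE 0.191, adjusted p = 0.0117) and of -1.14 with the length trend removed (adjusted p = 0.00084). In TPM the groups lay farther apart for both genes. Obp56a was at 99.2, 118 and 107 TPM in CrolKO, against 338, 312 and 323 TPM in wild-type. Obp56e was at 11.7, 10.4 and 12.4 TPM in CrolKO, against 35.2, 30.1 and 34.2 TPM in wild-type. A gene for an antisense RNA, asRNA:CR44509, overlaps Obp56e, and the strand setting of the count is not given in the sources used here.

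Obp56h lies in a separate run with Obp56g. Its knock-down in males is known to alter mating behaviour. It had 8.46, 10.4 and 9.71 CPM in the libraries labelled CrolKO, against 3.53, 2.37 and 2.72 CPM in those labelled wild-type. The lowest CrolKO library was well above the highest wild-type library, with means of 9.51 ± 0.967 CPM in CrolKO and 2.88 ± 0.596 CPM in wild-type (SD, n = 3 each). Its log2 fold change was 1.73 (SE 0.188, adjusted p = 0.00075), the lowest adjusted p of the members, and 1.46 with the length trend removed (adjusted p = 0.00038). In TPM it was at 15.1, 14 and 15.3 in CrolKO, against 8.82, 7.08 and 5.72 in wild-type. Its neighbour Obp56g, known from adult seminal fluid, was almost undetected, at 0, 0 and 0.08 TPM in CrolKO and 0, 0.06 and 0 TPM in wild-type.

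The minus-C class, which holds the 5 tested genes Obp44a, Obp99a, Obp99b, Obp99c and Obp99d, carried most of the family's RNA. It summed to 5514 to 10036 TPM in the libraries labelled CrolKO, against 12269 to 12697 TPM in those labelled wild-type. None of the 5 was called, with log2 fold changes of -0.087 to 0.38 (-0.35 to 0.13 with the length trend removed). Obp99d was the low member, with 33, 29 and 11 counts in CrolKO against 29, 21 and 15 in wild-type (0.38, SE 0.381, adjusted p = 0.462). The 1 untested gene of the class, Obp8a, had at most 4 counts.

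The double-domain genes Obp83cd and Obp83ef, on opposite strands of arm 3R and overlapping each other, were detected in all libraries and neither was called. Obp83ef varied widely among the libraries labelled CrolKO, at 2.37, 6.24 and 9.41 CPM, against 5.2, 4.7 and 4.8 CPM in wild-type. The wild-type values lay within the CrolKO range (log2 fold change 0.27, SE 0.415, adjusted p = 0.636). Obp83cd was steadier, at 3.45, 3.5 and 2.77 CPM in CrolKO, against 3.62, 2.23 and 2.78 CPM in wild-type (0.18, SE 0.228, adjusted p = 0.565).

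Obp28a and Obp47a had no overlap between the groups but missed the adjusted p. Obp28a, one of the most abundant Obps of the adult antenna, had 13.7, 13.9 and 10.7 CPM in CrolKO, against 10.5, 8.06 and 9.34 CPM in wild-type (log2 fold change 0.46, SE 0.156, adjusted p = 0.0539). Obp47a had 2.44, 3.16 and 3.67 CPM in CrolKO, against 1.9, 1.69 and 2.38 CPM in wild-type (0.63, SE 0.236, adjusted p = 0.0736). Obp18a overlapped, at 2.88, 3.63 and 4.26 CPM in CrolKO against 2.89, 1.83 and 2.64 CPM in wild-type (0.55, SE 0.245, adjusted p = 0.12). Obp57d, which in Drosophila sechellia bears on the choice of an octanoic-acid-rich host fruit, had 1.08, 2.22 and 0.694 CPM in CrolKO, against 1.26, 1.23 and 2.64 CPM in wild-type (-0.32, SE 0.474, adjusted p = 0.629). Its counts are uncertain because it overlaps the cuticle protein gene Cpr57A on the same strand. Across the 13 tested members with an adjusted p of at least 0.05, log2 fold changes ran from -0.32 to 0.63.

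Of the 28 untested members, Obp19a, Obp19b and Obp22a had no count in any library, which allows up to 3 counts in each. The other 25 had at least 1 count and at most 18. Those that reached 10 counts in some library were Obp19d, Obp46a, Obp50b, Obp50c, Obp57b and Obp69a. Obp69a, which in the adult antenna bears on responses to the pheromone cVA, had 18, 13 and 7 counts in CrolKO, against 4, 3 and 0 in wild-type. Obp57b had 11, 8 and 6 counts in CrolKO, against 2, 4 and 1 in wild-type. Both were just below the count minimum. In CPM the groups did not overlap in either gene or in Obp46a, with CrolKO higher, nor in Obp50e, Obp56f and Obp83a, with CrolKO lower. The share of all untested genes without overlap was not computed, and among tested genes it was 50.2%. Obp56f and Obp83a had at most 4 counts in a library, so no difference is read from these separations. Obp50e had 3, 3 and 1 counts in CrolKO, against 3, 9 and 5 in wild-type. Obp46a had 7, 15 and 3 counts in CrolKO, against 2, 4 and 4 in wild-type, and Obp19d had 2, 15 and 1 counts in CrolKO, against 1, 6 and 4 in wild-type.

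The antennal genes Obp83a and Obp83b (OS-F and OS-E), whose products are among the main Obps of the adult antenna, were near 0 in these larvae. Obp83a was at 0, 0.02 and 0 TPM in CrolKO, against 0.04, 0.11 and 0.14 TPM in wild-type. Obp84a was at 0.07, 0.03 and 0.12 TPM in CrolKO, against 0.38, 0.19 and 0.04 TPM in wild-type. Obp51a, another gene of adult seminal fluid, was at 0.05 TPM in CrolKO replicate 2 and at 0 elsewhere. The rest, Obp19c, Obp56i, Obp57a, Obp57c, Obp57e and Obp73a, also stayed below the count minimum, as did the members named above by class and run. lush, an Obp gene under another symbol, was not tested either, with 0 to 0.12 TPM in CrolKO and 0 to 0.06 TPM in wild-type.

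By position, arm 2R held 29 of the 51 members and 14 of the 23 tested ones, and all 8 called genes lay there. Arm 3R held 12 members with 7 tested, arm X 6 with 1 tested, arm 2L 2 with 1 tested and arm 3L 2 with none tested. No member on these arms was called. The share of all tested genes called on each arm was not computed, so nothing is read from the position of the called members. Plus-C members encode longer proteins, with 173 to 238 codons (median 199), against 137 to 163 codons (median 146) in minus-C genes. Among tested members with more than 1 transcript, the weighted transcript length varied by over 0.5 bases between libraries in Obp44a, Obp56d, Obp56h and Obp99a. Obp44a had a longer weighted transcript length in CrolKO, at 663, 665 and 662 bases against 655, 654 and 656 bases in wild-type, and Obp56d also did not overlap, within 595 to 597 bases. In Obp56h and Obp99a the lengths overlapped. Among all tested genes with several transcripts whose length varied as much, 25.2% had no overlap in this length.

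**Figure D4:**
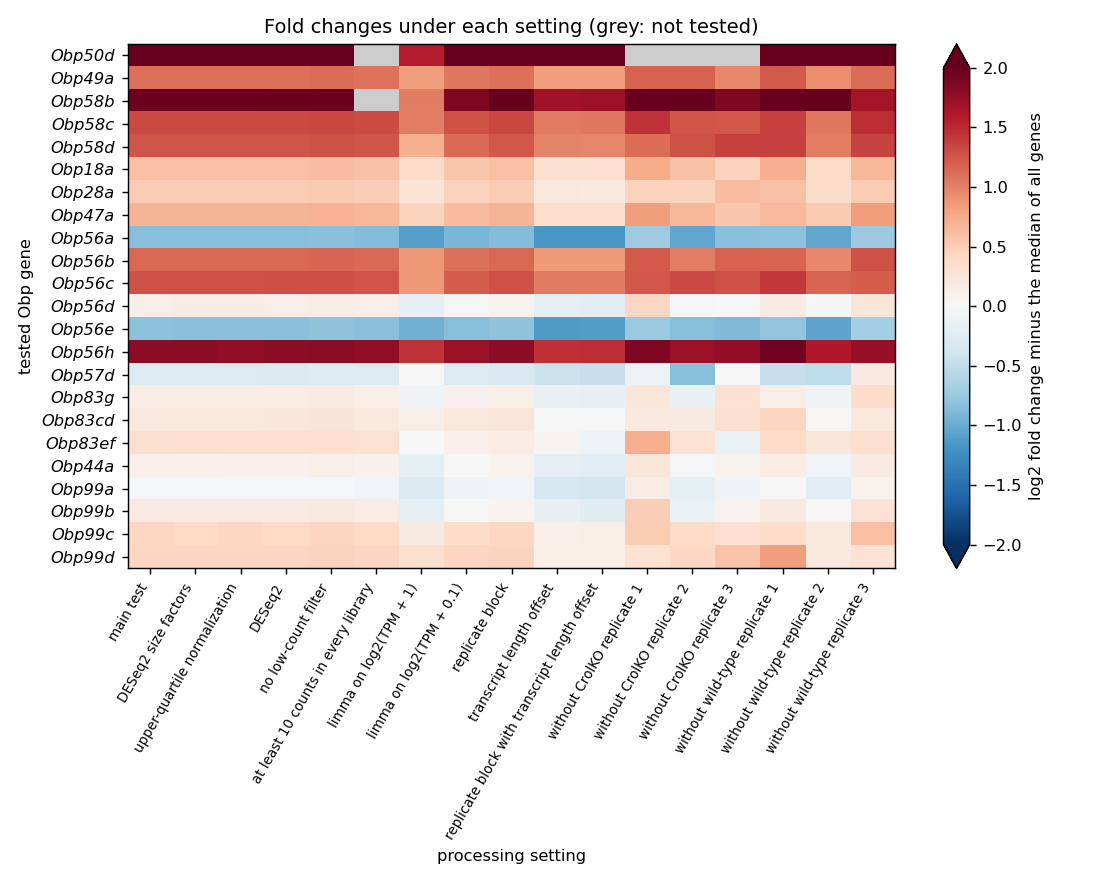
Log2 fold change of each tested Obp gene (rows) minus the median of all genes under each processing setting (columns), red where labelled CrolKO is higher than labelled wild-type and blue where lower, grey where not tested. Obp56h, Obp58b and Obp58c stay red and Obp56a and Obp56e blue across the columns that test them.

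The direction of the called members did not depend on the scaling, but the calls of some did. Under 16 other fits, Obp56h was called in 15, Obp56c and Obp58c in 14, and Obp58b in 14 of the 15 that tested it. Obp50d was untested whenever a CrolKO library was left out, so its calls say nothing about stability. Obp49a and Obp56b were called in 10 of 16 and Obp58d in 7. Obp56a was called lower in 6 and Obp56e in 5. Leaving out CrolKO replicate 2 or replicate 3 reduced the count of Obp genes called higher to 5. Of all genes these fits called 635 of 12307 and 606 of 12377 higher. On log2(TPM + 1) with limma 1 Obp gene was called higher, and on log2(TPM + 0.1) 3 were, both with 2 called lower. Of all 12434 tested genes the limma fits called 175 and 247 higher and 1689 and 3139 lower.

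The chemosensory receptor genes were low in these larvae. Odorant receptor genes, which encode the ion channels of olfactory neurons, passed the count minimum in 3 of 60 cases and gustatory receptor genes in 1 of 60. Odorant receptors summed to 0.88 to 1.49 TPM in CrolKO, against 1.74 to 3.35 TPM in wild-type, and gustatory receptors to 0.75 to 1.01 TPM in CrolKO, against 1.44 to 2.75 TPM in wild-type. Most genes in these sums were below the count minimum, and TPM was lower in CrolKO for the median tested gene as well. In normalised counts the median log2 fold change was -0.35 for the 3 tested odorant receptors and -0.15 for the 1 gustatory receptor. None of these 4 genes was called (0 also at an unadjusted p under 0.05 and by DESeq2). Of 60 ionotropic receptors 6 were tested, with Ir85a called higher (log2 fold change 1.51, adjusted p = 0.0453, not called by DESeq2) and Ir56b lower (-3.65, adjusted p = 0.0037). Ir56b had 1, 3 and 0 counts in CrolKO, against 19, 29 and 18 in wild-type, and passed the count minimum only through the libraries labelled wild-type. Of the CheA and CheB genes 1 of 20 was tested and 0 were called, with 1 lower at an unadjusted p under 0.05 and 0 called by DESeq2.

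Of 6 further genes for secreted chemosensory or membrane proteins, 5 were tested. PebIII, which encodes a chemosensory protein of another fold, had 45.4, 49.4 and 37.6 CPM in CrolKO, against 121, 103 and 122 CPM in wild-type, and was called lower (log2 fold change -1.38, adjusted p = 0.00061). Phk-3, of the same fold, overlapped, at 61.5, 90 and 72.5 CPM in CrolKO against 73.3, 61.1 and 78.8 CPM in wild-type (0.071, adjusted p = 0.769). Snmp1, a membrane protein needed for pheromone detection, had 5.12, 4.39 and 3.86 CPM in CrolKO, against 2.8, 3.03 and 2.81 CPM in wild-type (0.63, adjusted p = 0.0281), a difference below the fold threshold.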

How the data were processed

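Polyadenylated RNA of whole larvae was sequenced in 6 libraries. The submitters' processing notes name Trim Galore 0.6.1, STAR 2.7.3a, dm3 and RSEM 1.3.2, and the authors' RSEM tables give an expected count for each gene of a library, deposited unscaled. The deposited TPM values come from the same tables and are scaled to the same total in every library. featureCounts and DESeq2 1.22.2 made the authors' own list, not used here. Groups came from the sample titles.

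After rounding, 12434 genes reached 10 counts in 3 or more libraries and entered edgeR 4.0.16 (R 4.3.3), with TMM factors, a two-sided quasi-likelihood test and Benjamini-Hochberg adjustment over all of them. A call needed an adjusted p under 0.05 and a log2 fold change beyond 1 in either direction. The SE is the size of the log2 fold change divided by the square root of F. The length correction removed each library's lowess trend (span 0.3) over log2 transcript length. DESeq2 1.42.0, limma 3.58.1, other scalings, filters and thresholds, the replicate number as a block and each library left out were alternatives. The floors (3 counts, 0.0603 to 0.149 CPM) cover counting error only. Replicates of a group differed by more than sampling noise.

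Chromosome arms, neighbours, overlaps and codons come from the Release 6 annotation, which held all 51 members. Its coordinates are not given, since the authors worked in dm3. Protein and promoter sequences were not used here. Members and lists were chosen with earlier results of these data known. Every member was accounted for, with values per library for the called genes, the 8 of highest mean TPM and those with an adjusted p under 0.05 and no overlap.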

Additional observations from a re-analysis of the deposited data

How the results depend on the processing

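The main test called 8 Obp genes higher and 0 lower in the libraries labelled CrolKO. DESeq2, its size factors and upper-quartile scaling also called 8 and 0, no count filter 10 and 0, 10 counts in every library 6 and 0, and an adjusted p under 0.01 7 and 0. Of all 12434 tested genes DESeq2 called 786 and 915, its size factors 786 and 889, and upper-quartile scaling 912 and 752. No count filter called 780 and 1001 of 15529 genes, and 10 counts in every library 636 and 789 of 11430. Without a fold threshold 2 passed as lower. limma on log2(TPM + 1) called 1 higher and 2 lower, against 175 and 1689 of all 12434 genes. On log2(TPM + 0.1) it called 3 and 2, against 247 and 3139. The length correction gave 5 and 2, against 629 and 704 of all 12434 genes. Same-numbered libraries did not deviate together (correlations 0.00352, -0.292 and -0.0517). With the replicate block 7 were called higher and 0 lower (Obp58d was lost), against 682 and 809 of all 12434 genes. With the block and the length correction 5 and 2 were called, against 580 and 597. With each library left out, 5 to 8 were called higher and 0 to 2 lower, with 5 higher without CrolKO replicate 2 or 3, 6 without CrolKO replicate 1 or wild-type replicate 2, and 2 lower without wild-type replicate 2. Of all genes (12172 to 12377 tested) these fits called 606 to 889 higher and 576 to 1089 lower. The cause of these moves was not tested. No called gene changed direction. Reversals of members that were not called were as follows. On log2(TPM + 1), where the median of all genes was -0.48, they were Obp18a -0.092, Obp28a -0.21, Obp44a -0.66, Obp47a -0.036, Obp56d -0.65, Obp83cd -0.37, Obp83ef -0.47, Obp83g -0.57, Obp99b -0.67, Obp99c -0.30 and Obp99d -0.16. On log2(TPM + 0.1), with a median of -0.67, they were Obp18a -0.11, Obp28a -0.22, Obp44a -0.66, Obp47a -0.044, Obp56d -0.65, Obp83cd -0.47, Obp83ef -0.58, Obp83g -0.59, Obp99b -0.67, Obp99c -0.30 and Obp99d -0.25. Relative to those medians the same genes lay between -0.19 and 0.63. The length correction gave Obp44a -0.20, Obp56d -0.18, Obp83cd -0.0093, Obp83g -0.15 and Obp99b -0.17. With the replicate block added it gave Obp44a -0.21, Obp56d -0.23, Obp83cd -0.0071, Obp83ef -0.10, Obp83g -0.17 and Obp99b -0.25. Upper-quartile scaling gave Obp99a 0.031. With each library left out, Obp44a ran from -0.083 to 0.19, Obp56d from -0.091 to 0.36, Obp57d from -0.90 to 0.21, Obp83ef from -0.19 to 0.67, Obp83g from -0.20 to 0.38, Obp99a from -0.25 to 0.10 and Obp99b from -0.19 to 0.43. Depth limits Obp50d, Obp58b, Obp58d and Obp99d, which have at most 50 counts in a library, and the untested members.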
